A study of Oryctolagus cuniculus with 49 samples.

Results

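WNT signalling genes were followed in rabbit iris and ciliary body after removal of the lens. They were picked by a rule that reads only the gene symbol and no measured value, chosen with earlier results of these data known. The rule covered WNT ligands, frizzled receptors, co-receptors, secreted antagonists, the R-spondin axis, the enzyme that acylates the ligands, and cytoplasmic and nuclear components. The rule was met by 50 of the 12948 gene symbols measured, with 66 of the 16725 transcripts. By role they comprised 7 ligands, 1 ligand-acylating enzyme, 9 frizzled receptors, 4 co-receptors, 9 secreted antagonists, 7 members of the R-spondin axis, 9 cytoplasmic and 4 nuclear components. WNT16, the ligand used as marker of the group, was present in all 26 libraries at 7.16 to 37.6 FPKM (fragments scaled to transcript length and library size).

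The animals were New Zealand white rabbits, an albino laboratory breed, and the operation removed the natural lens and inserted an artificial intraocular lens. There were 7 unoperated and 3 operated libraries at 5 weeks of age, 3 operated libraries at 6.5 weeks, and 7 unoperated and 6 operated libraries at 6 months. No other agent or genotype is named in the labels, and how long after surgery the tissue was taken is not stated there. The labels hold no unoperated 6.5-week library, so that surgery and growth cannot be told apart in that group. The titles give each library an animal number of its own, and nothing further states that the samples are independent, so p-values measure the spread between these samples. The read depth is unknown. The FPKM summed over the table was 412936 to 438564 in unoperated 5-week, 437259 to 490542 in operated juvenile, 431241 to 456586 in unoperated 6-month and 476369 to 504202 in operated 6-month libraries. It lay higher with surgery at 6 months, without overlap. In juveniles the operated range also reached higher and overlapped the unoperated range narrowly. The iris and ciliary body were recognisable by 7 of 8 listed markers of their epithelium, among them BEST2 at 20.6 to 29.8 FPKM and PAX6 at 300.1 to 374 FPKM in unoperated 6-month libraries. In such tissue samples fewer cells of a type and less RNA per cell cannot be told apart.

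WNT proteins are secreted lipid-modified ligands that bind frizzled receptors. With the co-receptors LRP5 and LRP6 they stabilise β-catenin, which acts with TCF and LEF proteins on transcription, while other ligands act through planar polarity and calcium branches. Secreted antagonists hold ligands or co-receptors back, and R-spondins, through LGR receptors, protect frizzled receptors from the ubiquitin ligases ZNRF3 and RNF43. AXIN2, NKD1, ZNRF3 and RNF43 are themselves widely used as targets and feedback inhibitors of the β-catenin branch. During eye development, WNT signalling takes part in forming the ciliary margin and the iris.

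In unoperated 6-month eyes the secreted antagonists carried most of the signal among the extracellular members. Their summed level was 604 ± 21.5 FPKM (SD, n = 7), against 97.3 ± 10.5 for the 7 ligands, 120 ± 5.51 for the 9 frizzled receptors and 108 ± 6.23 for the R-spondin axis. DKK3 and FRZB were the most abundant antagonists, WNT2B and WNT16 the most abundant ligands, and LGR4 alone made up 58.3% of the R-spondin axis. CTNNB1, which encodes β-catenin, was the most abundant cytoplasmic member at 166 ± 4.36 FPKM. The table lists transcripts above 1 FPKM throughout at least 1 of 4 groups (both operated juvenile ages taken as 1), so that a WNT gene low in every group is not seen here. Of the 50 members, 44 exceeded 1 FPKM in every library of all 4 groups.

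Surgery moved the ligands WNT16, WNT2B and WNT9A, the antagonists FRZB and SFRP1, the agonists RSPO2 and RSPO3, the co-receptor LRP6 and the feedback genes AXIN2, NKD1 and ZNRF3 down at both ages, and DKK2 and FZD8 up at both. A gene is said here to have risen, fallen or changed where limma gave a Benjamini-Hochberg adjusted p under 0.05 over all 12948 genes. At 6 months 21 of 50 members changed (42%, against 46.1% of all genes tested), with 2 higher (16% of all genes were higher) and 19 lower (38%, against 30.1% of all genes). In juveniles, where the mean of the operated 5-week and 6.5-week groups was compared with unoperated 5-week eyes, 20 changed (40%, against 37.3% of all genes), with 4 higher (16.5% of all genes) and 16 lower (32%, against 20.8% of all genes). The share of members that changed was thus close to the background. In this fit lower calls took a larger share of the members than of all genes, a difference that was not tested. The number of lower calls moved with the scaling of libraries, as given in the last section. The median member differed by -0.16 on the log2 scale at 6 months, where the median of all genes was -0.11, and by -0.13 in juveniles, where it was -0.06.

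The comparisons at the 2 ages share no library. Of the 19 members lower at 6 months, 14 (73.7%) were also lower in juveniles, where they made up 87.5% of the lower members: AXIN2, FRZB, FZD2, LGR4, LRP6, NKD1, PORCN, RSPO2, RSPO3, SFRP1, WNT16, WNT2B, WNT9A and ZNRF3. The members higher at both ages were DKK2 and FZD8. The calls shared by both ages were not counted over all genes, so whether this overlap is particular to the members was not tested. Operated and unoperated libraries did not overlap at all for 13 members at 6 months (26%, against 20.9% of all genes) and for 13 in juveniles (26%, against 15.7% of all genes).

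**Figure D1:**
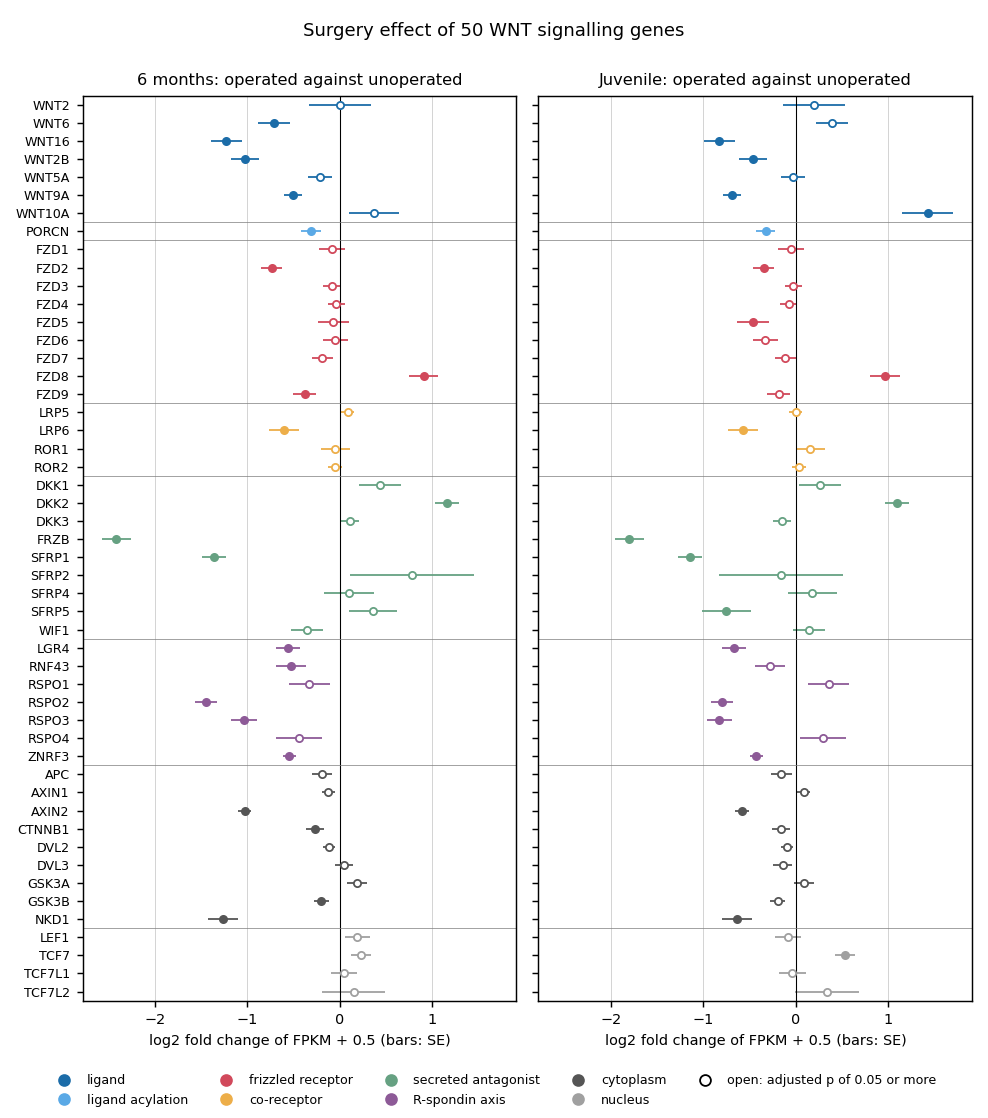
Log2 difference between operated and unoperated eyes for the 50 WNT signalling genes, grouped by role, at 6 months and in juveniles. Points are limma estimates on log2(FPKM + 0.5), bars are standard errors, and open points did not pass the adjusted p threshold of 0.05. FRZB lies farthest to the left at both ages, at -2.42 and -1.80, and DKK2 and FZD8 lie to the right at both.

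Markers of several cell types moved with surgery, and their part in the differences of the WNT genes was not tested. The summed level of 7 of 8 ciliary and iris epithelium markers was 1150 to 1276 FPKM in unoperated and 691 to 917 FPKM in operated 6-month libraries, and 1140 to 1282 against 646 to 901 FPKM in juveniles. For 6 of 6 pigment cell markers the sums were 1980 to 2489 against 1197 to 1758 FPKM at 6 months and 2540 to 3440 against 1458 to 1967 FPKM in juveniles. Endothelial markers (6 of 6 listed) ran the other way, from 72.1 to 102 FPKM in unoperated to 148 to 265 in operated 6-month libraries, and from 95.1 to 109 to 222 to 312 FPKM in juveniles. The sum of 8 of 10 macrophage markers was 74.99 to 211 FPKM in unoperated and 252 to 608 FPKM in operated 6-month libraries, and 61.3 to 150 against 293 to 718 FPKM in juveniles. Neutrophil markers (3 of 5 listed) summed to 0.55 to 4.18 against 20.1 to 82.1 FPKM at 6 months and 0.86 to 7.47 against 15.7 to 55.99 FPKM in juveniles, and MMP9 among them was listed at 0 in 7 unoperated libraries. The sum of 6 of 6 markers of corneal endothelium and epithelium was 91.03 to 124.9 FPKM in unoperated and 64.2 to 90.3 FPKM in operated 6-month libraries, and 91.3 to 119.9 against 57.2 to 85.5 FPKM in juveniles. Fibroblast and stroma markers (6 of 6 listed) summed to 4834 to 5499 FPKM without and 3357 to 4605 FPKM with surgery in juveniles, and overlapped at 6 months at 2710 to 3238 against 2477 to 3089 FPKM.

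Among the ligands, 4 of 7 fell at 6 months (30.1% of all genes fell) and 3 of 7 fell in juveniles (20.8% of all genes), where 1 rose (16.5% of all genes). WNT16, a ligand described in bone and in stress responses, was measured at 22.1 to 37.6 FPKM (median 30.6) in unoperated and 7.16 to 19.8 FPKM (median 13.04) in operated 6-month libraries. In juveniles it was at 19.5 to 34.9 FPKM (median 23.3) in unoperated libraries, at 11.7, 14.3 and 16.2 FPKM in the operated 5-week and at 15.2, 12.4 and 13.8 FPKM in the operated 6.5-week libraries. At 6 months every operated library lay below every unoperated one, and all operated juveniles lay below all unoperated 5-week libraries. WNT16 fell by 1.23 on the log2 scale (SE 0.17, adjusted p = 3.26e-06) at 6 months and fell by 0.82 on the log2 scale (SE 0.17, adjusted p = 0.000474) in juveniles by limma, and both calls held in every alternative tried.

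WNT2B, a ligand expressed at the ciliary margin of the developing eye, was at 25.2 to 38.2 FPKM (median 30.9) in unoperated and 9.37 to 25.8 FPKM (median 14.3) in operated 6-month libraries. Juvenile values were 22.5 to 29.98 FPKM (median 26.7) in unoperated, 19.8, 18.6 and 19.4 FPKM in operated 5-week and 17.4, 19.5 and 16.1 FPKM in operated 6.5-week libraries. At 6 months the ranges touched through 1 operated library, and in juveniles they were separate. It fell by 1.02 on the log2 scale (SE 0.15, adjusted p = 8.24e-06) at 6 months and fell by 0.46 on the log2 scale (SE 0.15, adjusted p = 0.0196) in juveniles, and the juvenile call was lost in 3 of 42 alternatives, each with fewer juvenile libraries (adjusted p from 0.000758 to 0.172 by limma). WNT9A, a ligand known from joint development, was low at 3.10 ± 0.372 FPKM without and 2.03 ± 0.188 FPKM with surgery at 6 months (SD, n = 7 and 6), without overlap, and fell by 0.51 on the log2 scale (SE 0.10, adjusted p = 0.000230). In juveniles WNT9A was at 3.59 ± 0.282 FPKM without and 2.06 ± 0.435 FPKM with surgery (SD, n = 7 and 6), and fell by 0.69 on the log2 scale (SE 0.10, adjusted p = 7.46e-06).

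WNT6, a ligand of surface epithelia, separated the ages. It was measured at 5.51 to 12.2 FPKM (median 10.5) in unoperated and 3.95 to 8.26 FPKM (median 5.7) in operated 6-month libraries, with overlap, and fell by 0.71 on the log2 scale (SE 0.17, adjusted p = 0.00153). Juvenile libraries gave 4.43 to 7.29 FPKM (median 5.31) without surgery, 7.53, 5.01 and 5.3 FPKM at 5 weeks and 10.04, 7.32 and 10.6 FPKM at 6.5 weeks of age with surgery. Of the operated 5-week libraries 2 lay within the unoperated range and 1 just above it, all operated 6.5-week libraries lay above it, and the juvenile difference did not pass the test (log2 difference 0.39, SE 0.17, adjusted p = 0.0740).

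WNT10A, a ligand of skin and tooth development, was the 1 ligand that rose in juveniles. Unoperated 5-week libraries held 0.4 to 1.4 FPKM (median 1.25), operated 5-week libraries 3.38, 2.17 and 2.8 FPKM, and operated 6.5-week libraries 3.48, 5.88 and 6.66 FPKM. All 6 operated juveniles lay above all unoperated ones, and WNT10A rose by 1.43 on the log2 scale (SE 0.27, adjusted p = 0.000197). At 6 months the ranges overlapped widely, at 1.16 to 6.25 FPKM (median 2.51) without and 2.2 to 7.51 FPKM (median 3.12) with surgery, and the difference did not pass the test (log2 difference 0.37, SE 0.27, adjusted p = 0.271). The planar polarity ligand WNT5A and the low ligand WNT2 did not pass the surgery test at either age, with log2 differences of -0.22 and 0.00 at 6 months and -0.03 and 0.20 in juveniles.

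The 7 ligands together reached 97.3 ± 10.5 FPKM without and 57.4 ± 12.6 FPKM with surgery at 6 months (SD, n = 7 and 6). Individual sums ran from 82.1 to 109 and from 47.8 to 81.9 FPKM, without overlap. In juveniles the sums were 77.4 ± 9.48 FPKM without surgery (n = 7), 60.3 ± 1.81 FPKM at 5 weeks and 64.1 ± 3.61 FPKM at 6.5 weeks of age with surgery (SD, n = 3 each). The makeup of the ligand pool also differed. WNT16 held 30.98 ± 2.76% of it in unoperated and 22.5 ± 4.20% in operated 6-month eyes, and 32.6 ± 4.38% against 22.4 ± 2.87% in juveniles. WNT10A held 3.08 ± 1.71% against 6.56 ± 2.07% at 6 months and 1.47 ± 0.452% against 6.50 ± 2.78% in juveniles. PORCN, the enzyme that attaches the lipid to WNT ligands, fell by 0.31 on the log2 scale at 6 months (SE 0.11, adjusted p = 0.0195, limma, and 0.000937 to 0.0910 over its alternatives) and by 0.33 in juveniles (SE 0.11, adjusted p = 0.0177, limma). Its juvenile call was lost without operated 5-week replicate 3 (adjusted p = 0.0628, against 0.00137 to 0.215 over all its alternatives). In all, the 6-month call was lost in 3 of 40 alternatives and the juvenile call in 4 of 42.

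**Figure D2:**
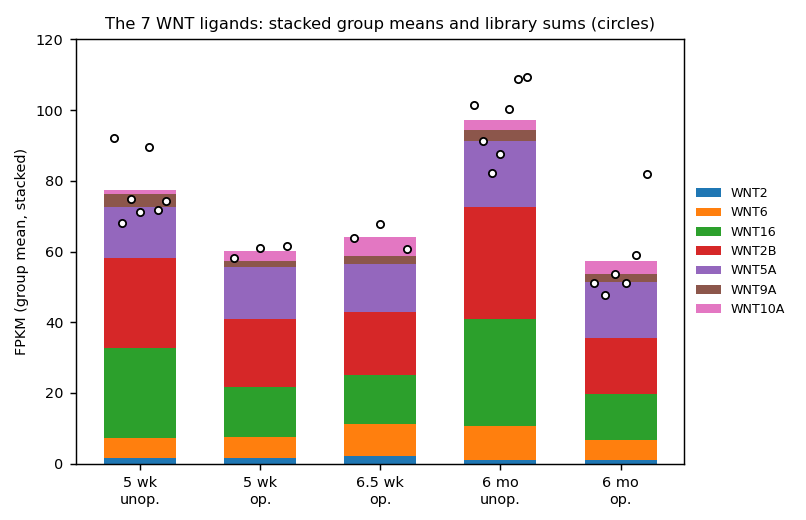
Summed FPKM of the 7 measured WNT ligands in each of the 5 groups, stacked by ligand as group means, with circles for the sums of the single libraries. The unoperated 6-month bar is the tallest at 97.3 FPKM and the operated 6-month bar reaches 57.4 FPKM, and WNT2B and WNT16 are the tallest segments of the unoperated bars.

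The frizzled receptors bind the ligands at the cell surface, and 5 of the 9 measured ones did not pass the surgery test at either age. FZD8 rose at both ages. At 6 months it was at 2.15 to 4.35 FPKM (median 3.41) in unoperated and 4.9 to 7.83 FPKM (median 6.95) in operated libraries. Juvenile values were 3.7 to 6.64 FPKM (median 4.72) without surgery, 15.4, 14.2 and 7.88 FPKM at 5 weeks and 7.27, 7.3 and 9.92 FPKM at 6.5 weeks with it. All operated libraries lay above all unoperated ones at 6 months, and all operated juveniles lay above all unoperated 5-week libraries. FZD8 rose by 0.91 on the log2 scale (SE 0.16, adjusted p = 7.08e-05) at 6 months and rose by 0.97 on the log2 scale (SE 0.16, adjusted p = 3.87e-05) in juveniles by limma.

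FZD2, which serves both the β-catenin and the other branches, fell instead. At 6 months it was 28.2 ± 2.64 FPKM without and 16.9 ± 2.91 FPKM with surgery (SD, n = 7 and 6), without overlap, and fell by 0.74 on the log2 scale (SE 0.11, adjusted p = 1.2e-05). In juveniles FZD2 was 22.2 ± 3.96 against 17.3 ± 2.36 FPKM (SD, n = 7 and 6) and fell by 0.34 on the log2 scale (SE 0.11, adjusted p = 0.0189). This juvenile call was lost in 4 of 42 alternatives (adjusted p from 0.00130 to 0.203 by limma over all). It was lost without operated 6.5-week replicate 1 (adjusted p = 0.0702) and with the operated 6.5-week libraries alone. It was also lost without the libraries above 1000 FPKM of the lens gene CRYAA and without the 5-week samples numbered late in the labels. FZD9, measured at 1.63 ± 0.227 against 1.15 ± 0.286 FPKM, fell by 0.38 on the log2 scale (SE 0.12, adjusted p = 0.0154) at 6 months, a call lost with median-ratio scaling (adjusted p = 0.0549, against 0.00242 to 0.0549 over its alternatives). In juveniles FZD9 did not pass the test (log2 difference -0.18, SE 0.12, adjusted p = 0.262). FZD5, a receptor of the optic vesicle, fell by 0.46 on the log2 scale (SE 0.17, adjusted p = 0.0345) in juveniles, with 3.30 ± 1.38 FPKM in operated 5-week and 1.82 ± 0.410 FPKM in operated 6.5-week eyes (SD, n = 3 each) against 3.57 ± 1.04 FPKM in unoperated eyes (n = 7). The FZD5 call was lost on leaving out any 1 of 5 libraries, namely unoperated 5-week replicates 2 and 6, operated 5-week replicate 3 and operated 6.5-week replicates 1 and 3 (adjusted p from 0.0715 to 0.149, against 0.00567 to 0.696 over its alternatives). FZD1, FZD3, FZD4, FZD6 and FZD7 did not pass the surgery test at either age, and their log2 differences lay between -0.33 for FZD6 in juveniles and -0.02 for FZD3 in juveniles.

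LRP5 and LRP6, the paired co-receptors of the β-catenin branch, differed in what was seen. LRP6 was at 17.4 to 21.2 FPKM (median 20.7) in unoperated and 10.3 to 14.3 FPKM (median 13.3) in operated 6-month libraries, without overlap. In juveniles it was at 14.9 to 20.98 FPKM (median 18.6) without surgery, at 14.03, 16.1 and 14.96 FPKM at 5 weeks and at 12.5, 15.9 and 4.67 FPKM at 6.5 weeks with surgery, where the last library was the lowest of all. LRP6 fell by 0.60 on the log2 scale (SE 0.16, adjusted p = 0.00397) at 6 months and fell by 0.57 on the log2 scale (SE 0.16, adjusted p = 0.00685) in juveniles, where the call was lost in 2 of 42 alternatives, with the operated 5-week libraries alone and without the libraries above 1000 FPKM of CRYAA (adjusted p from 0.000293 to 0.339).

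LRP5 was at 16.1 to 18.7 FPKM (median 17.5) without and 16.3 to 21.2 FPKM (median 18.3) with surgery at 6 months. Its juvenile values were 18.3 to 21.6 FPKM (median 20.4), 22.2, 18.3 and 19.2 FPKM and 20.1, 18.9 and 21.99 FPKM in unoperated, operated 5-week and operated 6.5-week libraries. The ranges overlapped at both ages, and the LRP5 differences of 0.08 (SE 0.07, adjusted p = 0.306) and 0.00 (SE 0.07, adjusted p = 0.990) did not pass limma's test. ROR1 and ROR2, receptor kinases for WNT5A, did not pass the surgery test either, with log2 differences between -0.05 and 0.16.

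The secreted antagonists held both the largest fall and the largest rise among members called at 6 months. FRZB (also called SFRP3), a decoy that binds WNT ligands, was at 149 to 222 FPKM (median 176) in unoperated and 22.6 to 58.2 FPKM (median 29.4) in operated 6-month libraries. Juvenile libraries held 99.1 to 148 FPKM (median 113) without surgery, 34.7, 33.9 and 30.9 FPKM at 5 weeks and 34.8, 33.3 and 28.4 FPKM at 6.5 weeks with it. The highest operated library stayed well below the lowest unoperated one at both ages. FRZB fell by 2.42 on the log2 scale (SE 0.15, adjusted p = 9.36e-12) at 6 months, a 5.34-fold difference on this scale, and fell by 1.80 on the log2 scale (SE 0.15, adjusted p = 2.01e-09) in juveniles, a 3.48-fold difference.

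SFRP1, another frizzled-related decoy, was at 58.3 to 80.8 FPKM (median 69.3) without and 18.8 to 33.97 FPKM (median 26.5) with surgery at 6 months. In juveniles SFRP1 was at 39.9 to 65.6 FPKM (median 48.6) without surgery and at 25.8, 20.7 and 18.9 FPKM at 5 weeks and 18.1, 23.9 and 27.2 FPKM at 6.5 weeks with it. The groups did not overlap at either age. SFRP1 fell by 1.36 on the log2 scale (SE 0.13, adjusted p = 8.25e-09) at 6 months and fell by 1.15 on the log2 scale (SE 0.13, adjusted p = 1.86e-07) in juveniles.

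DKK2, a secreted ligand of LRP5 and LRP6 known to act in the front of the eye, ran the other way. Its values were 4.71 to 7.17 FPKM (median 5.75) in unoperated and 10.6 to 16.8 FPKM (median 14.03) in operated 6-month libraries. Juveniles gave 3.23 to 6.02 FPKM (median 4.08) without surgery, 7.59, 8.9 and 7.93 FPKM at 5 weeks and 14.01, 13.4 and 9.96 FPKM at 6.5 weeks with it. Operated libraries lay above unoperated ones throughout, and DKK2 rose by 1.16 on the log2 scale (SE 0.13, adjusted p = 1.75e-07) at 6 months and rose by 1.09 on the log2 scale (SE 0.13, adjusted p = 5.46e-07) in juveniles.

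SFRP5 was at 3.38 to 7.23 FPKM (median 5.2) in unoperated 5-week libraries and at 1.61, 6.21 and 2.38 FPKM and 1.92, 1.5 and 5.61 FPKM in the operated 5-week and 6.5-week libraries. In each operated group 1 library lay within the unoperated range and the others lay below it. SFRP5 fell by 0.75 on the log2 scale (SE 0.26, adjusted p = 0.0275) in juveniles, a call lost on leaving out any 1 of 5 libraries, namely unoperated 5-week replicate 2, operated 5-week replicates 1 and 3 and operated 6.5-week replicates 1 and 2 (adjusted p from 0.0590 to 0.102, against 0.00209 to 0.286 over its alternatives). At 6 months it was at 4.02 to 6.51 FPKM (median 5.78) without and 3.91 to 12.04 FPKM (median 7.83) with surgery and did not pass the test (log2 difference 0.36, SE 0.26, adjusted p = 0.276). The abundant DKK3 and WIF1 and the low DKK1 and SFRP4 did not pass the surgery test at either age, with log2 differences from -0.36 for WIF1 to 0.43 for DKK1, both at 6 months.

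SFRP2 was the most variable member, at 13.8 to 521 FPKM, and was not called in any comparison. It was at 60.8 to 113 FPKM (median 69.8) in unoperated and 43.96 to 521 FPKM (median 91.3) in operated 6-month libraries, a log2 difference of 0.78 (SE 0.67, adjusted p = 0.355, limma). High SFRP2 went with high CRYAA, the gene of the lens protein αA-crystallin, which differed widely between libraries. In the 8 libraries above 1000 FPKM of CRYAA (4 unoperated and 1 operated at 5 weeks, 1 unoperated and 2 operated at 6 months), SFRP2 was at 35.1 to 521 FPKM with a median of 152.5. In the other 18 libraries it was at 13.8 to 113 FPKM with a median of 68.4. No test was made of this relation, and without the 8 libraries the SFRP2 difference was -0.01 at 6 months and 0.20 in juveniles.

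**Figure D3:**
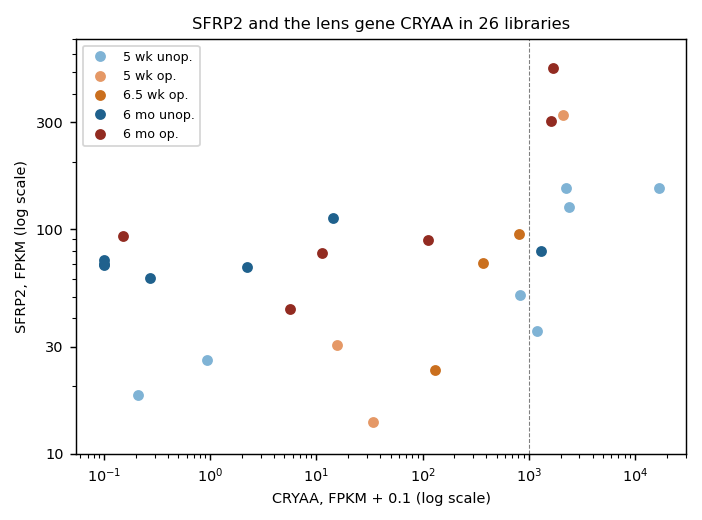
SFRP2 against CRYAA in the 26 libraries, in FPKM on log axes with 0.1 added to CRYAA, coloured by group, with a dashed line at 1000 FPKM of CRYAA. The highest SFRP2 values, up to 521 FPKM, are found to the right of the line, and the 18 libraries to its left stay at or below 113 FPKM.

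In the R-spondin axis 5 of 7 members fell at 6 months (30.1% of all genes fell) and 4 of 7 in juveniles (20.8% of all genes), and none rose. RSPO2, an agonist that raises the response to WNT ligands, was at 14.1 to 22.6 FPKM (median 21.3) in unoperated and 5.56 to 7.5 FPKM (median 7.32) in operated 6-month libraries. Juvenile libraries held 11.01 to 16.6 FPKM (median 13.3) without surgery, 7.03, 7.97 and 5.98 FPKM at 5 weeks and 9.09, 9.02 and 6.4 FPKM at 6.5 weeks with it. No operated library reached the unoperated range at either age. RSPO2 fell by 1.45 on the log2 scale (SE 0.12, adjusted p = 7.32e-10) at 6 months and fell by 0.79 on the log2 scale (SE 0.12, adjusted p = 1.03e-05) in juveniles.

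RSPO3, a related agonist, was at 4.36 to 7.75 FPKM (median 5.93) without and 1.86 to 3.39 FPKM (median 2.61) with surgery at 6 months. In juveniles RSPO3 was at 3.26 to 6.05 FPKM (median 3.92) without surgery, and at 1.78, 1.74 and 2.51 FPKM and 2.59, 2.11 and 2.05 FPKM in operated 5-week and 6.5-week libraries. The groups were again separate at both ages. RSPO3 fell by 1.03 on the log2 scale (SE 0.14, adjusted p = 1.81e-06) at 6 months and fell by 0.82 on the log2 scale (SE 0.14, adjusted p = 4.36e-05) in juveniles.

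RSPO1 and RSPO4, the remaining R-spondins, did not pass the surgery test. RSPO4 was at 3.07 to 6.4 FPKM (median 5.62) without and 2.33 to 5.88 FPKM (median 2.71) with surgery at 6 months (log2 difference -0.44, SE 0.25, adjusted p = 0.153). Juvenile RSPO4 values were 0.96 to 4.02 FPKM (median 1.71) without surgery and 1.82, 2.15 and 1.39 FPKM and 3.12, 2.39 and 3.9 FPKM with it at 5 and 6.5 weeks (log2 difference 0.29, SE 0.25, adjusted p = 0.378), so that the ranges overlapped at both ages. LGR4, the R-spondin receptor, fell by 0.56 on the log2 scale (SE 0.13, adjusted p = 0.00137) at 6 months, from 62.8 ± 6.73 to 43.5 ± 11.9 FPKM (SD, n = 7 and 6), and fell by 0.67 on the log2 scale (SE 0.13, adjusted p = 0.000311) in juveniles. The ubiquitin ligase ZNRF3 fell by 0.54 on the log2 scale (SE 0.07, adjusted p = 1.21e-06) at 6 months, from 8.27 ± 0.745 to 5.52 ± 0.516 FPKM without overlap, and fell by 0.42 on the log2 scale (SE 0.07, adjusted p = 4.05e-05) in juveniles. Its relative RNF43 fell by 0.53 on the log2 scale (SE 0.16, adjusted p = 0.0108) at 6 months, a call lost without the libraries above 1000 FPKM of CRYAA (adjusted p = 0.0517, against 0.00157 to 0.0517 over its alternatives), and in juveniles the difference did not pass the test (log2 difference -0.27, SE 0.16, adjusted p = 0.194).

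Among the cytoplasmic components the feedback inhibitors AXIN2 and NKD1 fell most. AXIN2, a scaffold of the β-catenin destruction complex, was at 11.5 to 13.6 FPKM (median 12.3) in unoperated and 4.88 to 7.08 FPKM (median 5.89) in operated 6-month libraries. In juveniles it was at 9.64 to 11.5 FPKM (median 10.1) without surgery, at 7.07, 6.23 and 6.02 FPKM at 5 weeks and at 6.78, 7.67 and 6.45 FPKM at 6.5 weeks with surgery. Its spread within groups was narrow. Operated and unoperated libraries did not overlap at 6 months, nor did operated juveniles and unoperated 5-week libraries. AXIN2 fell by 1.03 on the log2 scale (SE 0.07, adjusted p = 6.82e-11) at 6 months and fell by 0.58 on the log2 scale (SE 0.07, adjusted p = 1.06e-06) in juveniles.

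NKD1, which binds Dishevelled and dampens WNT signals, was at 13.7 to 19.1 FPKM (median 16.5) without and 4.22 to 12.4 FPKM (median 6.32) with surgery at 6 months. Juvenile NKD1 was at 9.61 to 16.6 FPKM (median 13.8) without surgery, 7.56, 7.84 and 6.48 FPKM at 5 weeks and 10.3, 8.98 and 9.74 FPKM at 6.5 weeks with it. The 6-month groups were separate, and in juveniles 2 operated 6.5-week libraries reached into the unoperated range. NKD1 fell by 1.27 on the log2 scale (SE 0.16, adjusted p = 9.49e-07) at 6 months and fell by 0.63 on the log2 scale (SE 0.16, adjusted p = 0.00339) in juveniles, where it was lost with the operated 6.5-week libraries alone (adjusted p = 0.0977, the highest over its 42 alternatives, the lowest being 0.000227).

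CTNNB1, β-catenin itself, was at 159 to 171 FPKM (median 168) in unoperated and 104 to 169.6 FPKM (median 147) in operated 6-month libraries. Juvenile libraries were at 148 to 178 FPKM (median 173) without surgery, 154, 154 and 145 FPKM at 5 weeks and 152, 172 and 125 FPKM at 6.5 weeks with it. The ranges overlapped at both ages, with 3 operated libraries low. CTNNB1 fell by 0.27 on the log2 scale (SE 0.10, adjusted p = 0.0260) at 6 months, and in juveniles the difference did not pass the test (log2 difference -0.16, SE 0.10, adjusted p = 0.203). The 6-month call was lost in 6 of 40 alternatives (adjusted p from 0.00205 to 0.281 by limma over all). Leaving out operated replicate 4 or replicate 6 was enough for that (adjusted p of 0.0890 and 0.0891). So were median-ratio scaling, upper-quartile scaling and a fit of only the compared groups.

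The 3 libraries lowest in CTNNB1, picked after its values were seen, lay together at an end of the range in LGR4, GSK3A and TCF7L1. In no other member did all 3 do so, and how many of all genes place them so was not counted. These libraries were operated 6-month replicates 6 and 4 and operated 6.5-week replicate 3, at 104, 111 and 125 FPKM. The other 23 libraries held 136 to 178 FPKM. The 3 libraries were also the lowest in LGR4 (33.7, 32.7 and 24.8 FPKM, others 36.9 to 73.8), and the highest in GSK3A (79.4, 78.9 and 60.1 FPKM, others 42.9 to 52.01) and in TCF7L1 (27.4, 25.1 and 19.7 FPKM, others 11.9 to 18.9). Without these 3 libraries the 6-month difference of CTNNB1 was -0.08 (adjusted p = 0.281, limma), and the calls of PORCN at 6 months, of FZD5 in juveniles and of DKK2, FZD8 and ROR2 with age in operated eyes were lost as well. What sets these libraries apart was not tested.

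GSK3B, the kinase that marks β-catenin for destruction, fell by 0.20 on the log2 scale (SE 0.08, adjusted p = 0.0445) at 6 months, and leaving out any 1 of 9 libraries lost the call (adjusted p from 0.0508 to 0.148, against 0.00247 to 0.336 over its alternatives). Those 9 were unoperated 5-week replicate 1, unoperated 6-month replicates 3, 4, 5, 6 and 7, and operated 6-month replicates 2, 4 and 5. In all, 14 of 40 alternatives lost the GSK3B call, among them median-ratio scaling, upper-quartile scaling and a fit of only the compared groups. APC, AXIN1, DVL2, DVL3 and GSK3A did not pass the surgery test at either age, with log2 differences between -0.19 and 0.19.

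Of the 4 transcription factors of the pathway none was called with surgery at 6 months, and 1, TCF7, was called in juveniles. LEF1, which partners β-catenin, was at 8.15 to 12.1 FPKM (median 11.1) without and 9.21 to 16.7 FPKM (median 11.1) with surgery at 6 months (log2 difference 0.19, SE 0.14, adjusted p = 0.265). Juvenile LEF1 values were 8.03 to 12.9 FPKM (median 11.6), 8.71, 9.96 and 10.5 FPKM and 12.2, 9.53 and 10.3 FPKM in unoperated, operated 5-week and operated 6.5-week libraries (log2 difference -0.08, SE 0.14, adjusted p = 0.661). The ranges overlapped in both comparisons. TCF7L1 and TCF7L2 did not pass the test at either age.

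TCF7, which also marks T cells, rose by 0.53 on the log2 scale (SE 0.11, adjusted p = 0.000446) in juveniles and did not pass the test at 6 months (log2 difference 0.23, SE 0.11, adjusted p = 0.0852). The rise lay in the operated 5-week libraries, at 13.1, 10.9 and 12.6 FPKM, while the 6.5-week libraries were at 8.84, 5.77 and 8.58 FPKM and the unoperated ones at 5.22 to 7.37 FPKM (median 6.69). With the operated 6.5-week libraries alone the log2 difference was 0.21 and was not called. The sum of 3 of 5 T cell markers was 85.0 FPKM in operated 5-week replicate 3 and 3.25 to 6.01 FPKM in the other operated juveniles. In unoperated 5-week libraries that sum was 0.22 to 8.66 FPKM (median 0.62). TCF7 was at 12.6 FPKM in operated 5-week replicate 3 and at 13.1 and 10.9 FPKM in the other operated 5-week libraries. The part of T cells in the TCF7 difference was not tested.

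**Figure D4:**
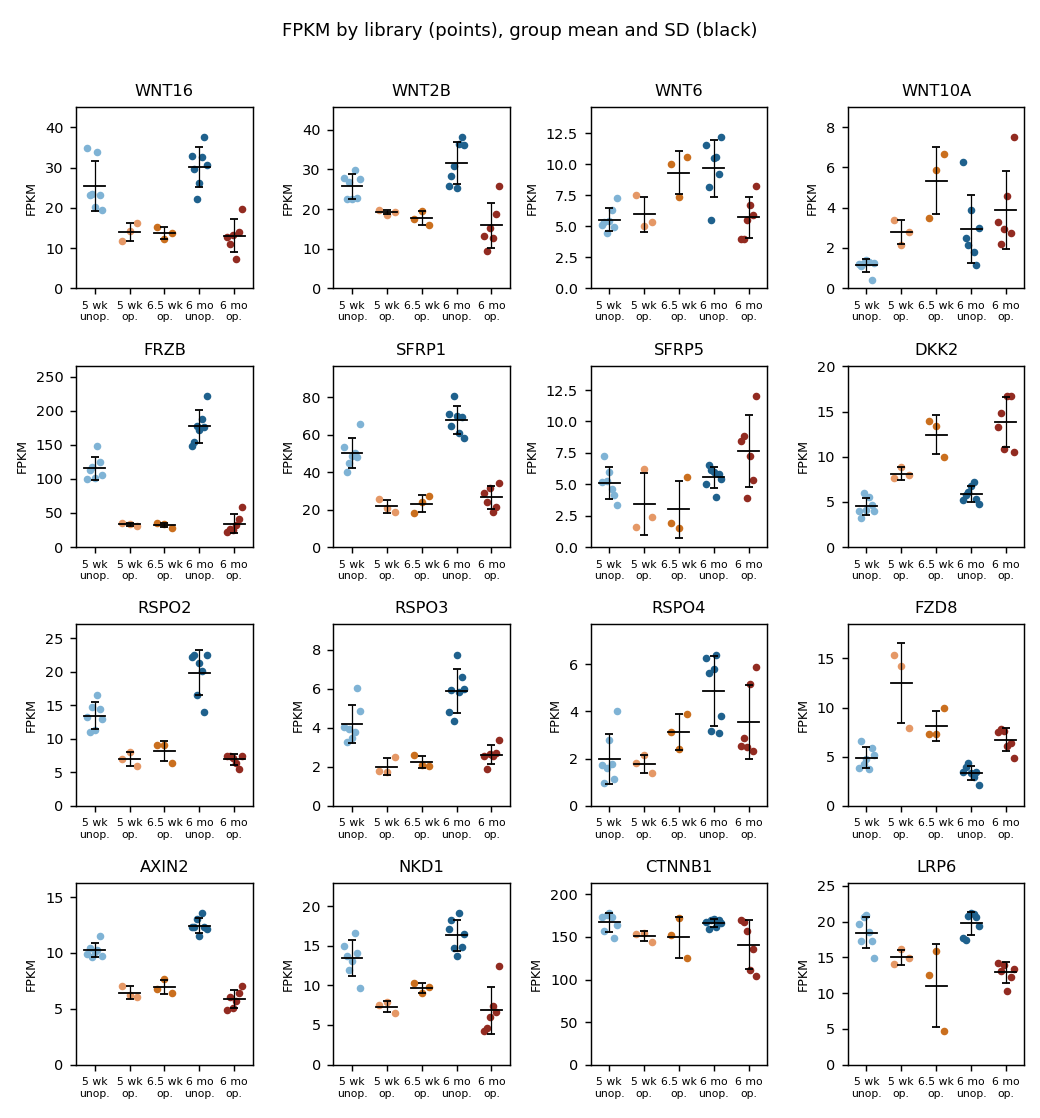
FPKM of 16 WNT signalling genes in each library of the 5 groups, with the group mean and SD as bars. For FRZB, SFRP1, RSPO2, RSPO3 and AXIN2 the operated points lie below all unoperated points of their age, for DKK2 and FZD8 they lie above them, and CTNNB1 shows 3 low operated libraries.

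Age was compared separately in unoperated and in operated eyes, and these comparisons share libraries with the surgery comparisons. Between 5 weeks and 6 months without surgery, 13 of 50 members changed (26%, against 20.8% of all genes), 10 of them higher at 6 months (11.4% of all genes were higher) and 3 lower (9.46% of all genes). The members that rose were RSPO4, WNT10A, WNT6, FRZB, RSPO2, RSPO3, SFRP1, WNT5A, FZD2 and AXIN2, and FZD8, DVL3 and LRP5 fell. The groups did not overlap for 2 members, FRZB and DVL3 (4%, against 8.25% of all genes).

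RSPO4 rose by 1.15 on the log2 scale (SE 0.24, adjusted p = 0.00139), from 1.99 ± 1.06 to 4.87 ± 1.47 FPKM (SD, n = 7 each), and RSPO2 rose by 0.54 on the log2 scale (SE 0.11, adjusted p = 0.00159), from 13.5 ± 1.98 to 19.9 ± 3.32 FPKM. RSPO3 rose by 0.45 on the log2 scale (SE 0.13, adjusted p = 0.0174). These were 3 of the 4 R-spondins, and RSPO1 did not pass the test (log2 difference 0.47, SE 0.21, adjusted p = 0.118). Among ligands WNT10A rose by 0.99 on the log2 scale (SE 0.26, adjusted p = 0.00913), WNT6 rose by 0.73 on the log2 scale (SE 0.16, adjusted p = 0.00277) and WNT5A rose by 0.37 on the log2 scale (SE 0.13, adjusted p = 0.0397). Unoperated WNT6 was 5.54 ± 0.952 FPKM at 5 weeks and 9.67 ± 2.28 FPKM at 6 months. The antagonists FRZB and SFRP1 also rose, FRZB by 0.61 (SE 0.15, adjusted p = 0.00464) and SFRP1 by 0.44 (SE 0.12, adjusted p = 0.0132). AXIN2 rose by 0.27 on the log2 scale (SE 0.07, adjusted p = 0.00804), from 10.2 ± 0.634 to 12.5 ± 0.651 FPKM, and FZD2 rose by 0.35 on the log2 scale (SE 0.11, adjusted p = 0.0227). Of the falls, FZD8 fell by 0.47 on the log2 scale (SE 0.15, adjusted p = 0.0307), DVL3, a Dishevelled relay protein, fell by 0.28 on the log2 scale (SE 0.10, adjusted p = 0.0456) and LRP5 fell by 0.20 on the log2 scale (SE 0.06, adjusted p = 0.0242).

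Most of these age calls depended on which libraries were used, and only RSPO4 and WNT6 were called in every alternative. Without the 8 libraries above 1000 FPKM of CRYAA 4 members were called, and of the 13 above only RSPO4 and WNT6 were among them. The calls of WNT10A, FRZB, RSPO2, RSPO3, SFRP1, AXIN2, WNT5A, FZD2, FZD8, DVL3 and LRP5 were lost there. Of the 8 libraries, 4 were unoperated at 5 weeks and 1 was unoperated at 6 months. The LRP5 call was lost without unoperated 6-month replicate 5 or 7 (adjusted p of 0.0514 and 0.0526, against 0.00281 to 0.242 over its alternatives), and that of FZD2 without unoperated 5-week replicate 1 or 3 (0.0540 and 0.0548, against 0.00528 to 0.167). The FZD8 call was lost on leaving out unoperated 5-week replicate 2, 6 or 7 or unoperated 6-month replicate 5 or 7 (adjusted p up to 0.0771, against 0.0154 to 0.209 over its alternatives). WNT5A was lost without unoperated 5-week replicate 2, 3, 5 or 7 or unoperated 6-month replicate 1, 4, 6 or 7 (up to 0.0982, against 0.0206 to 0.360). DVL3 was lost in 15 such cases, namely all unoperated libraries but 5-week replicate 3 and 6-month replicate 6, and operated 5-week replicates 1 and 2 and operated 6-month replicate 5 (up to 0.0892, against 0.000750 to 0.391). The sum of 6 of 6 fibroblast and stroma markers was 4834 to 5499 FPKM at 5 weeks and 2710 to 3238 FPKM at 6 months in unoperated eyes, and that of 5 of 5 markers of dividing cells was 15.4 to 30.4 against 2.96 to 4.85 FPKM. Their part in the age differences was not tested.

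Among operated eyes 7 of 50 members changed between juveniles and 6 months (14%, against 15.7% of all genes), 3 higher (5.88% of all genes) and 4 lower (9.78% of all genes). The antagonists SFRP5, DKK3 and DKK2 were higher at 6 months and the antagonist WIF1 lower. WIF1, a secreted inhibitor that binds WNT ligands, was at 34.3 to 92.1 FPKM (median 67.8) in operated 6-month libraries and at 112, 103 and 104 FPKM and 134, 107 and 113 FPKM in operated 5-week and 6.5-week libraries. It fell by 0.83 on the log2 scale (SE 0.18, adjusted p = 0.00260) and was the 1 member whose libraries did not overlap (2%, against 4.78% of all genes), and the call held in every alternative tried. SFRP5 rose by 1.24 on the log2 scale (SE 0.27, adjusted p = 0.00325), from 3.21 ± 2.13 to 7.63 ± 2.85 FPKM (SD, n = 6 each).

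DKK3, a divergent Dickkopf family member, rose by 0.42 on the log2 scale (SE 0.10, adjusted p = 0.00639), and DKK2 rose by 0.42 on the log2 scale (SE 0.14, adjusted p = 0.0389). FZD8 fell by 0.54 on the log2 scale (SE 0.17, adjusted p = 0.0304), TCF7 fell by 0.46 on the log2 scale (SE 0.11, adjusted p = 0.00727) and ROR2 fell by 0.23 on the log2 scale (SE 0.08, adjusted p = 0.0476). The DKK2 call was lost on leaving out operated 5-week replicate 1 or 3, operated 6.5-week replicate 3 or operated 6-month replicate 1, 2, 4 or 5 (adjusted p up to 0.0969, against 0.00857 to 0.682 over its alternatives). FZD8 was lost without operated 5-week replicate 1 or 2, operated 6.5-week replicate 3 or operated 6-month replicate 4 or 6 (up to 0.0869, against 0.00514 to 0.473). ROR2 was lost without any 1 of 20 libraries, and was kept only without unoperated 5-week replicate 3 or 7, operated 6.5-week replicate 1 or 2 or operated 6-month replicate 3 or 5 (up to 0.123, against 0.00716 to 0.296). With only the compared groups in the fit, 1 of the 7, WIF1, was called, and the calls of SFRP5, DKK3, DKK2, FZD8, TCF7 and ROR2 were lost.

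**Figure D5:**
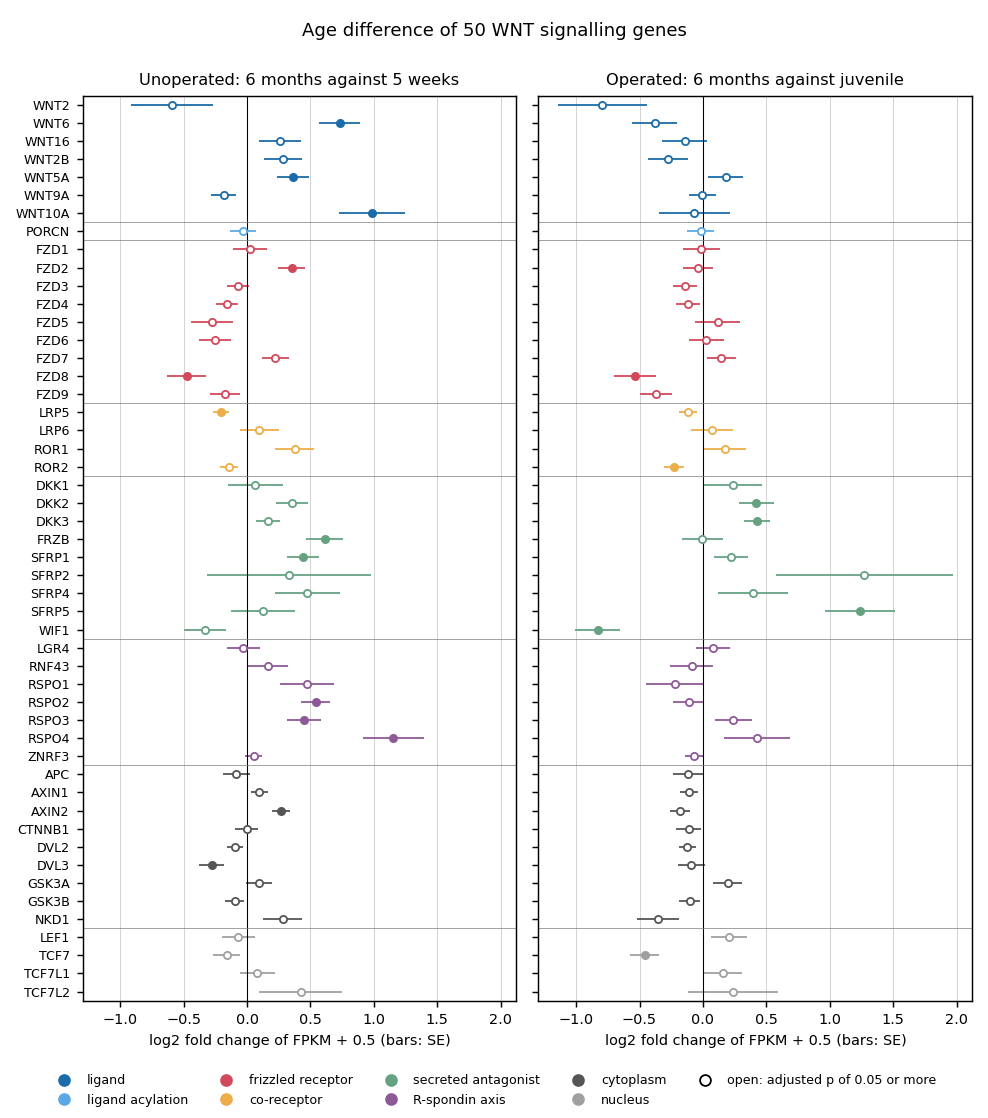
Log2 difference between 6-month and juvenile eyes for the 50 WNT signalling genes, among unoperated and among operated eyes, with limma estimates, standard errors and open points for genes that did not pass the adjusted p threshold of 0.05. RSPO4 at 1.15 leads the unoperated comparison, and SFRP5 at 1.24 and WIF1 at -0.83 are the outermost filled points of the operated one, where the open point of SFRP2 lies slightly farther right.

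The surgery difference itself differed between the ages for 2 of 50 members (4%, against 1.09% of all genes), both lower at 6 months (0.355% of all genes) and none higher (0.734% of all genes). For WNT6 the difference of the surgery effects, 6 months minus juvenile, was -1.11 (SE 0.24, adjusted p = 0.0190, limma), from effects of -0.71 and 0.39. For AXIN2 it was -0.45 (SE 0.10, adjusted p = 0.0269, limma), from effects of -1.03 and -0.58. The WNT6 call was lost in 2 of 41 alternatives, with the operated 5-week libraries alone and without the libraries above 1000 FPKM of CRYAA (adjusted p from 0.00379 to 0.232 over all). The AXIN2 call was lost in 9 of 41 (0.00599 to 0.518). Leaving out operated 5-week replicate 1, operated 6.5-week replicate 2, unoperated 6-month replicate 5 or operated 6-month replicate 1 was enough for that (adjusted p from 0.0509 to 0.0594). RSPO2, with surgery effects of -1.45 and -0.79, did not pass this test (log2 difference -0.66, SE 0.17, adjusted p = 0.0556).

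Operated 6.5-week and operated 5-week eyes did not differ in any member by limma's adjusted p, where 0.0154% of all genes were called. By unadjusted p, 9 members (18%, against 10.3% of all genes) lay under 0.05, with 3 higher and 6 lower at 6.5 weeks. The smallest adjusted p was that of TCF7 (log2 difference -0.64, SE 0.16, adjusted p = 0.153). The 3 libraries of each side did not overlap for 9 members, 6 higher and 3 lower (18%, against 11.3% of all genes). WNT10A was among these at 3.38, 2.17 and 2.8 FPKM against 3.48, 5.88 and 6.66 FPKM, a log2 difference of 0.80 (SE 0.40, adjusted p = 0.499).

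Genes of the pathway beyond these 50 were read from 4 lists. Of 20 measured secretion factors, extracellular regulators and co-receptors (of 26 listed), 2 rose and 11 fell at 6 months and 2 rose and 10 fell in juveniles. That is 65% called at 6 months and 60% in juveniles, against 46.1% and 37.3% of all genes. APCDD1, a membrane inhibitor of WNT signals, fell by 1.25 on the log2 scale (SE 0.09, adjusted p = 9.81e-11) at 6 months, from 70.0 ± 5.02 to 29.4 ± 4.92 FPKM (SD, n = 7 and 6), and fell by 1.09 on the log2 scale (SE 0.09, adjusted p = 1.32e-09) in juveniles. NDP, which encodes Norrin, a ligand of FZD4, fell by 2.12 on the log2 scale (SE 0.15, adjusted p = 4.15e-11) at 6 months and fell by 1.07 on the log2 scale (SE 0.15, adjusted p = 3.24e-06) in juveniles. It was low throughout, at 3.28 ± 0.711 FPKM without and 0.375 ± 0.200 FPKM with surgery at 6 months, and 1.16 ± 0.225 against 0.297 ± 0.137 FPKM in juveniles (SD, n = 7 and 6 each). NDP also rose by 1.18 on the log2 scale (SE 0.14, adjusted p = 3.15e-06) with age in unoperated eyes, and its surgery effects differed between the ages (log2 difference -1.05, SE 0.21, adjusted p = 0.00899), a call lost in 3 of 41 alternatives (0.00211 to 0.0897). Those were a pseudocount of 0.1, the operated 5-week libraries alone, and leaving out the libraries above 1000 FPKM of CRYAA. The operated NDP means lay below the added 0.5 FPKM. Over the alternatives the surgery effect of NDP ran from -2.89 to -1.63 at 6 months and from -1.73 to -0.74 in juveniles. The co-receptor LRP4 and ADGRA2, a co-activator of WNT7 signals, fell by 0.67 and 0.58 at 6 months, and the secreted binding protein IGFBP4 rose by 1.45 on the log2 scale (SE 0.08, adjusted p = 2.15e-12).

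SOSTDC1, a secreted antagonist of BMP and WNT signals singled out after its values were seen, was at 1.89 ± 0.293 FPKM without and 2.49 ± 1.05 FPKM with surgery at 6 months (log2 difference 0.26, SE 0.16, adjusted p = 0.203). In juveniles it was at 2.64 ± 0.313 against 0.997 ± 0.137 FPKM (SD, n = 7 and 6) and fell by 1.07 on the log2 scale (SE 0.16, adjusted p = 1.43e-05). The difference between these surgery effects passed the test (log2 difference 1.33, SE 0.23, adjusted p = 0.00289), and was lost in 1 of 41 alternatives (adjusted p from 0.000268 to 0.0512), the one without the libraries above 1000 FPKM of CRYAA.

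Of 32 measured cytoplasmic and nuclear genes outside the 50 (of 42 listed), 3 rose and 12 fell at 6 months and 2 rose and 10 fell in juveniles. The shares called, 46.9% and 37.5%, were at the background of 46.1% and 37.3% of all genes. RNF146, AMER1, PYGO1 and CTNNBIP1, which act on Axin turnover, the destruction complex, the β-catenin transcription complex and β-catenin binding, fell by 0.43, 0.50, 0.77 and 0.33 at 6 months. DACT1, a Dishevelled-binding modulator, rose by 1.03 on the log2 scale (SE 0.19, adjusted p = 9.21e-05). Of 30 measured polarity and calcium branch genes (of 32 listed), 5 rose and 10 fell at 6 months and 4 rose and 10 fell in juveniles. The share called at 6 months, 50%, was close to the 46.1% of all genes, and in juveniles it was 46.7% against 37.3%. PLCB4, a phospholipase, and PRICKLE1, a core polarity protein, fell by 1.36 and 0.52 at 6 months, and the polarity cadherin CELSR1 and the GTPase RHOA rose by 0.50 and 0.32. The split of this list moved with the scaling of libraries at 6 months, from 2 higher and 17 lower with equal sums to 6 higher and 7 lower with median-ratio scaling.

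Genes commonly listed as β-catenin targets, taken from outside the members, did not move 1 way. The list thus leaves out the members AXIN2, NKD1, ZNRF3 and RNF43, which all fell at 6 months. Of 23 measured (of 35 listed), 8 rose and 6 fell at 6 months, where 16% of all genes rose and 30.1% fell. In juveniles 6 rose and 5 fell, where 16.5% of all genes rose and 20.8% fell. MYC, a growth regulator, rose by 2.22 on the log2 scale (SE 0.17, adjusted p = 1.85e-10) at 6 months, from 3.33 ± 0.589 to 17.6 ± 4.29 FPKM (SD, n = 7 and 6), and the adhesion receptor CD44 rose by 1.78 on the log2 scale (SE 0.13, adjusted p = 8.98e-11). BIRC5, a gene of dividing cells, rose by 2.53 on the log2 scale (SE 0.23, adjusted p = 5.1e-09) at 6 months and rose by 0.97 on the log2 scale (SE 0.23, adjusted p = 0.00193) in juveniles. The juvenile call was lost in 2 of 42 alternatives (5.05e-05 to 0.0585). The difference of these effects passed the test (log2 difference 1.56, SE 0.33, adjusted p = 0.0141) and was lost in 2 of 41 alternatives (0.00384 to 0.256). The sum of 5 of 5 markers of dividing cells was 2.96 to 4.85 FPKM without and 37.4 to 75.3 FPKM with surgery at 6 months, and 15.4 to 30.4 against 30.1 to 62.5 FPKM in juveniles. The pigment cell genes MITF and DCT fell by 0.61 and 0.67 at 6 months, and DCT is also one of the pigment cell markers above. At 6 months this list's split was 7 higher and 9 lower with equal sums and 8 higher and 4 lower with median-ratio scaling.

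Across the 6 comparisons 32 of the 50 members changed at least once and 18 never did. Those that changed by 2-fold or more in a called comparison were 13, namely FRZB, RSPO2, SFRP1, NKD1, WNT16, RSPO3, AXIN2, WNT2B, DKK2, WNT10A, RSPO4, SFRP5 and WNT6 (WNT6 in the difference of the surgery effects). Neither count was made over all genes, of which 46.1% were called for surgery at 6 months alone.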

How the data were processed

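RNA of 26 iris and ciliary body samples was analysed, and 23 cornea samples of the series were not analysed here. The authors deposited FPKM per transcript and library, per the file headers. Aligners (HISAT, HISAT2 2.0.4 and Bowtie2 2.2.5) and the quantifier RSEM 1.2.12 are named per the submitters' processing notes. For the genome build and annotation, not given in the sources used here, no coordinates are printed. Every listed transcript lies above 1 FPKM throughout at least 1 of 4 groups (the smallest such minimum is 1.01), with both operated juvenile ages taken as 1 group, so what is listed depends on the groups. No read counts were used, so no counting intervals are given.

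FPKM were summed per gene symbol (Python 3.11.15, pandas 2.3.3), 192 symbols having been restored from the RefSeq gene table, and taken as log2(FPKM + 0.5), which understates the change of low genes. A filter of 1 FPKM in at least 3 libraries removed no gene. Group means were fitted to the 26 libraries in limma 3.58.1 (R 4.3.3) with trended and robust variance moderation, and p-values were Benjamini-Hochberg adjusted over 12948 genes. The design foresaw a count test and named limma for FPKM. The fit was tested on simulated data. The 6 comparisons were surgery at 6 months and in juveniles, the difference between these effects, age without and with surgery, and 6.5 against 5 weeks among operated eyes.

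The members and all lists were chosen with earlier results of these data known. Values by library are given for members called with a 2-fold or larger difference and for WNT16, CTNNB1, AXIN2, LEF1, LRP5 and LRP6. From the other lists at most 6 genes each are named, those with the smallest p in the surgery and unoperated age comparisons. SFRP2, SOSTDC1 and other genes with values outside this rule were singled out after their values were seen. Alternatives were other pseudocounts (0.1 and 1), filters, scalings (equal sums, median-ratio, upper quartile), limma without trend, the highest transcript per symbol, only the compared groups, subsets of libraries, lens and retina levels as covariates, and leaving out each library in turn. A planned search of promoters for TCF motifs was not analysed here.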

Additional observations from a re-analysis of the deposited data

Results flagged for a closer look

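Of 150 sets of values (50 genes in the 3 groups of 6 or 7 libraries), 10 held a library farther from the others than Dixon's 95% limit, and chance gives about 1 in 20. In unoperated 5-week eyes the high ones were FZD9 in replicate 4 (2.91 FPKM, next 1.88), ROR1 in replicate 1 (17.3, next 12.8), RSPO1 in replicate 2 (3.44, next 1.89) and WNT9A in replicate 7 (4.2, next 3.58). The low ones there were WNT10A in replicate 6 (0.4 FPKM, next 1.12) and TCF7L2 in replicate 7 (1.39, next 8.98), where 2 of the 3 TCF7L2 transcripts were listed at 0. In unoperated 6-month eyes the high ones were FZD4 in replicate 3 (12.1 FPKM, next 10.1), SFRP2 in replicate 1 (112.6, next 79.5) and ZNRF3 in replicate 5 (9.82, next 8.4). In operated 6-month eyes GSK3B was low in replicate 5 (8.73 FPKM, next 11.35).

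The surgery difference was tested between the ages in limma, and the difference of the effects (6 months minus juvenile, log2) passed for 2 members, WNT6 at -1.11 and AXIN2 at -0.45. Among genes of the other lists it passed for NDP at -1.05, SOSTDC1 at 1.33 and BIRC5 at 1.56, each named above. None of these calls held in every alternative tried.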

How the results depend on the processing

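Of 63 called values of members over the comparisons, 31 kept their call in every alternative, 32 lost it in at least 1, and 0 turned direction. At 6 months 16 of 21 surgery calls were kept and in juveniles 12 of 20, against 2 of 13 for age without surgery, 1 of 7 for age with surgery and 0 of 2 for the difference of the surgery effects. Leaving out 1 library at a time gave 19 to 23 called members for surgery at 6 months, 17 to 21 in juveniles, 10 to 14 and 4 to 8 for age without and with surgery, 1 to 5 for the difference of effects and 0 to 1 for 6.5 against 5 weeks.

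Scaling libraries to equal sums moved the median of all genes from -0.11 to -0.24 at 6 months and from -0.06 to -0.18 in juveniles, and gave 28 called members at 6 months (2 higher, 26 lower), 26 in juveniles (4 higher, 22 lower) and 11 for age with surgery. Median-ratio scaling gave 4 higher and 15 lower at 6 months. Without the libraries above 1000 FPKM of CRYAA the counts were 4 and 3 for age without and with surgery and 0 for the difference of effects, and with lens and retina covariates 7 for age without surgery and 1 for the difference. Age with surgery gave 1 called member with only the compared groups and 3 with the 6.5-week operated libraries alone. The difference of effects gave 1 with median-ratio and 1 with upper-quartile scaling, 0 with the 5-week operated libraries alone and 5 without the 3 libraries lowest in CTNNB1, an alternative chosen after seeing the data. The shares of all genes called in these alternatives, and on leaving out 1 library at a time, are not given here. The counts therefore do not show whether the members moved apart from other genes. The cause of these shifts was not tested.

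Some uncalled values turned sign. With age without surgery CTNNB1 came to 0.0052 without the high-CRYAA libraries, 0.0629 with the covariates and ran from -0.0323 to 0.0113 without single libraries, and LEF1 to 0.0019 without the 5-week samples numbered late in the labels. LEF1 came to -0.0150 at 6 months without the 3 libraries lowest in CTNNB1 and to 0.0346 in juveniles by its highest transcript. LRP5 came at 6 months to -0.0592 with equal sums and -0.0002 without those 3 libraries, and in juveniles to 0.0286 (median-ratio), 0.0109 (upper quartile), 0.0156 (covariates), 0.0356 (without late-numbered samples), 0.0151 (6.5-week operated libraries alone) and ran from -0.0410 to 0.0265 without single libraries. SFRP2 came at 6 months to -0.0134 without the high-CRYAA libraries, and in juveniles to 0.2021 without them, 0.2456 without late-numbered samples, 0.1369 without the 3 libraries lowest in CTNNB1 and ran from -0.8152 to 0.3082 without single libraries. LRP5 at 6 months was called with median-ratio scaling (0.18), and CTNNB1 in juveniles with equal sums (-0.28). No paired analysis was possible because replicate numbers follow accession order and each animal number names 1 library among the 26 analysed, the compared groups holding different animals. FPKM carries no depth, so differences of members near 1 FPKM cannot be weighed against counting error.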
